A study of Drosophila melanogaster with 6 samples.

Results

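Transcripts of respiratory complexes II to V were followed in Kc-167 cells after RNA interference (RNAi) against Enigma. The members are the genes whose symbol names a succinate dehydrogenase subunit (Sdh followed by A, B, C or D), or begins with UQCR-, COX and a digit, or ATPsyn, or is RFeSP, Cyt-c1, Cyt-c-p, cype, levy, blw or ox, and that have a probe set annotated with no other gene. This gave 38 of the 10845 genes with such a probe set: 3 of complex II, 7 of complex III, 13 of complex IV and 15 of complex V. The names were matched by symbol and not by expression, and where a gene had several probe sets the one with the highest mean over the 6 arrays was used.

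The series holds 6 Affymetrix arrays of Drosophila melanogaster RNA. Kc-167 is an embryonic fly line with features of haemocytes, and it was treated with double-stranded RNA against beta-lactamase, a bacterial gene absent from flies, on the 3 control arrays, or with double-stranded RNA against Enigma (CG9006, current symbol Egm) on the other 3. Both groups had 20 µg of double-stranded RNA for 1 hour without serum, received serum, and were harvested on day 5. Each group carries replicate numbers 1 to 3, the arrays are named below by group and number, and a pair is the control and the Enigma array of the same number. The labels do not say that replicates were separate cultures, so the p-values below cover the spread among the samples at hand and nothing wider, and that spread may be technical. As a model the series is a single cell line and RNAi efficiency was followed by immunoblot, per the series description.

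Mitochondria make most of their ATP through 5 inner-membrane complexes. Complex II, succinate dehydrogenase, and complex I pass electrons to ubiquinone, complex III passes them on to cytochrome c, complex IV hands them to oxygen, and complex V, the ATP synthase, uses the proton gradient that complexes I, III and IV build. Acyl-CoA dehydrogenases, the family to which Enigma is related, feed the same ubiquinone pool through the electron transfer flavoprotein and its oxidoreductase, and Enigma itself is known in flies for effects on lifespan and resistance to oxidative stress. Apart from a few subunits encoded in mitochondrial DNA, the subunits described here are encoded in the nucleus.

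Values are GCRMA expression values on a log2 scale, and each difference is the Enigma RNAi mean less the control RNAi mean on that scale, with Enigma meaning the RNAi against it in the names of arrays. Testing needed a value above 4 on 3 or more of the 6 arrays, and 6975 probe sets and 32 of the 38 members met this filter. The Enigma transcript itself was at 6.00, 6.41 and 6.71 on control arrays 1 to 3 and at 3.24, 3.51 and 4.21 on Enigma arrays 1 to 3. All Enigma RNAi values lay below all control values, with a difference of -2.72 (95% confidence interval -3.41 to -2.04), and it did not pass the threshold without the replicate block (limma, adjusted p = 0.283) but passed with the replicate number as a block (limma, adjusted p = 0.000118). With values under 4 raised to 4 its difference was -2.31. Of the haemocyte markers 6 of 10 on the array passed the filter for testing, among them Hml and srp, while NimC1, eater, crq and Sr-CI did not. The sum of the log2 values of the 10 markers was between 58.1 and 66.0 on the control arrays and between 59.8 and 64.8 on the Enigma arrays. That sum includes the 4 markers below the filter. The widest ranges among the markers were those of vkg, 6.53 to 9.28 over the arrays, and Col4a1, 7.41 to 9.78. None of 4 fat body markers passed, and 1 of 5 muscle, 2 of 5 neuronal and 1 of 9 testis markers did, that last one being bam at 5.89 to 6.89 over the arrays. RNA quality was read from control transcripts as the log2 value at the 3' end less that at the 5' end. For eIF4A this log2 difference was 1.49, 1.22 and 1.43 in controls and 1.67, 1.52 and 1.95 after Enigma RNAi. It was higher after Enigma RNAi in each pair. The same measure for actin was also higher in each pair, with means of 0.652 ± 0.129 (SD, n = 3) in controls and 0.821 ± 0.176 (SD, n = 3) after Enigma RNAi. For Gapdh it was 2.12, 1.92 and 1.90 in controls and 2.07, 2.06 and 2.04 after Enigma RNAi, lower in pair 1 and higher in pairs 2 and 3. The part of these signals in the differences below was not tested.

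No member of complexes II to V passed the threshold after Enigma RNAi. Of the 32 tested, 22 had a lower and 10 a higher mean, and the differences ran from -0.39 for UQCR-6.4 to 0.27 for ATPsynbeta, with a median of -0.06 against -0.03 over all 6975 probe sets. In that larger set 58.3% had a lower mean. Without the block 0 of the 32 members and 0% of all probe sets passed (limma, Benjamini-Hochberg adjusted p = 0.999 for each member). At an unadjusted p under 0.05 there were 0 members against 4.26% of all probe sets. With the replicate block 0 members passed against 0.631% of all probe sets, and 3 members, UQCR-6.4, COX5A and ATPsynbeta, had an unadjusted p under 0.05 against 19.3%. The groups did not overlap for 1 of 32 members, SdhC, against 8.97% of all probe sets. Of the members, 8 were lower in all 3 pairs and 3 were higher in all 3, against 25.2% and 15.0% of all probe sets. In bulk RNA such as this, fewer cells of a type and less RNA per cell cannot be told apart.

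The 95% confidence interval of the difference lay within a 1.5-fold change in either direction, 0.58 on the log2 scale, for 22 of the 32 members without the block and for 30 with it. Over all probe sets the shares were 61.4% and 85.9%. The exceptions with the block were UQCR-6.4 (-0.61 to -0.18) and COX4L (-0.65 to 0.025). These intervals are not adjusted for the number of genes. The sign of the difference was the same under every processing alternative and with every array left out for 10 of the 32 members: SdhC, UQCR-6.4, COX4L, COX5A, COX7AL, levy, ATPsynD, ATPsynE, ATPsynbeta and blw. For the other 22 it turned at least once, and leaving out a single array was enough in each of them.

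**Figure D1:**
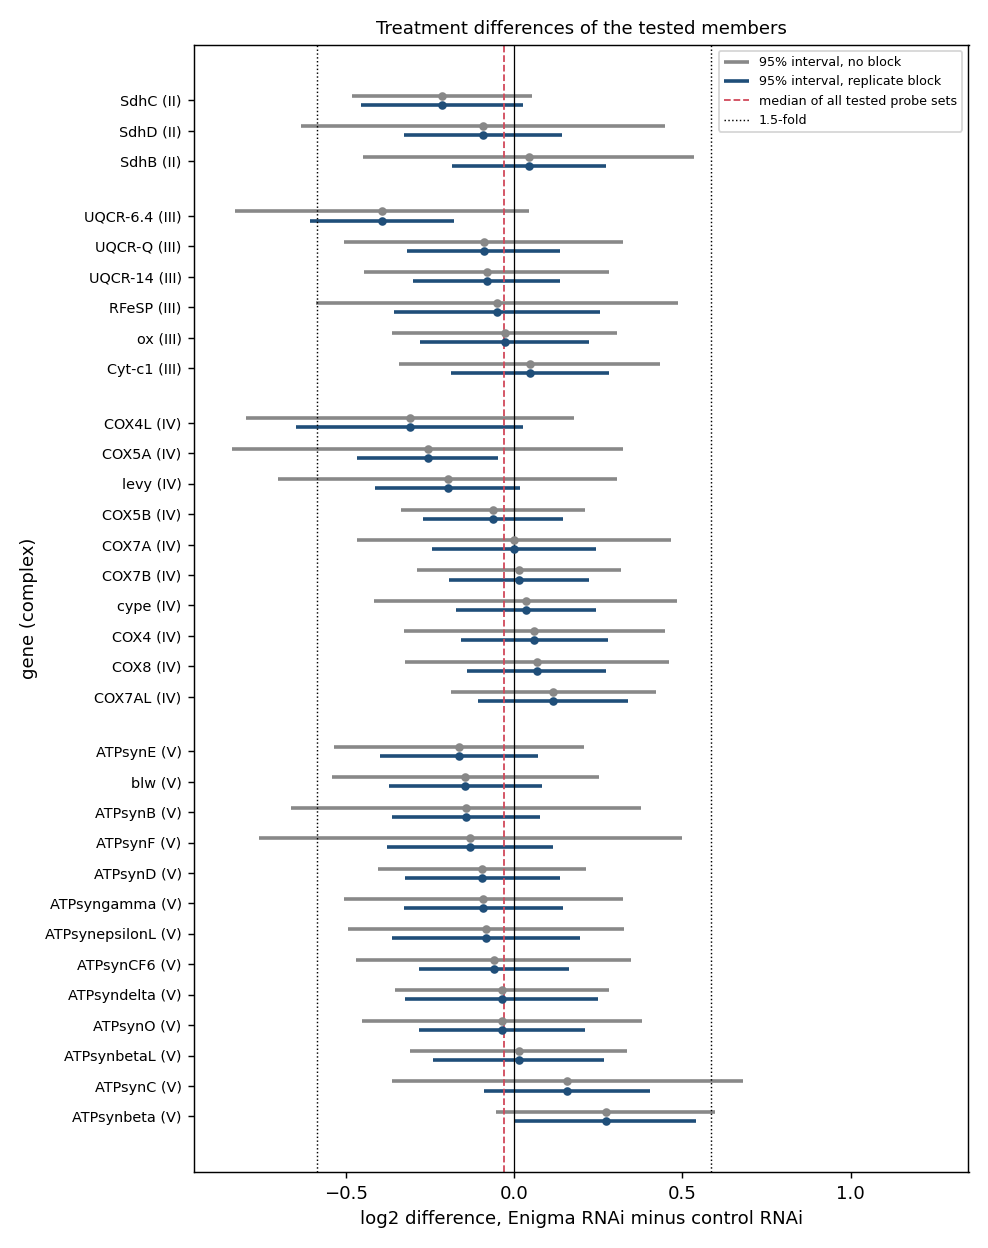
Log2 difference, Enigma RNAi minus control RNAi, for the 32 tested members grouped by complex, with 95% confidence intervals without (grey) and with (blue) the replicate block, the median of all tested probe sets (dashed) and a 1.5-fold change (dotted). UQCR-6.4 has the lowest value at -0.39 and ATPsynbeta the highest at 0.27, and 30 of the 32 blue intervals stay within the dotted lines.

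Complex II oxidises succinate to fumarate and is part of both the tricarboxylic acid cycle and the respiratory chain. The values of each array are given in the order of the replicate numbers. SdhB, the iron-sulphur subunit, was at 9.20, 9.84 and 9.70 on control arrays 1 to 3 and at 9.35, 9.72 and 9.80 on Enigma arrays 1 to 3. Its lowest values were those of replicate 1 in both groups, the groups overlapped, and the difference was 0.044 (interval -0.45 to 0.54). SdhC, a membrane anchor, was at 7.21, 7.30 and 7.21 on control arrays 1 to 3 and at 7.04, 6.88 and 7.15 on Enigma arrays 1 to 3. Every Enigma value of SdhC was below every control value, by little, and the means were 7.24 ± 0.049 (SD, n = 3) on the control arrays and 7.03 ± 0.14 (SD, n = 3) on the Enigma arrays. Its difference was -0.21 (interval -0.48 to 0.054, exact two-sided permutation p = 0.1, the smallest that 3 against 3 arrays allow), and its adjusted p was 0.315 in limma with the block. SdhD, the second membrane anchor, was at 7.91, 7.34 and 7.92 on control arrays 1 to 3 and at 7.63, 7.30 and 7.96 on Enigma arrays 1 to 3. The number-2 arrays were its lowest in both groups, and the difference was -0.093 (interval -0.63 to 0.45). SdhA, the flavoprotein subunit with the catalytic site, was not analysed here because no probe set carries it alone in the annotation used.

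Complex III oxidises ubiquinol and reduces cytochrome c. RFeSP, the Rieske iron-sulphur protein, was at 7.67, 7.29 and 6.93 on control arrays 1 to 3 and at 7.53, 6.97 and 7.24 on Enigma arrays 1 to 3. Cyt-c1, which carries the haem that reduces cytochrome c, was at 9.80, 9.68 and 9.30 on control arrays 1 to 3 and at 9.82, 9.57 and 9.52 on Enigma arrays 1 to 3. For both redox subunits the groups overlapped, with differences of -0.05 (interval -0.59 to 0.49) and 0.046 (interval -0.34 to 0.43). Their pair differences were -0.15, -0.32 and 0.31 for RFeSP and 0.02, -0.10 and 0.22 for Cyt-c1, so pair 3 was the highest for each.

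UQCR-6.4, a small membrane subunit of complex III, had the largest absolute difference of all members over the 6 arrays. It was at 10.82, 10.42 and 10.63 on control arrays 1 to 3 and at 10.51, 9.93 and 10.25 on Enigma arrays 1 to 3. The Enigma array was below the control array of the same number in all 3 pairs, with pair differences of -0.32, -0.49 and -0.37. The Enigma array of replicate 1 lay above the control array of replicate 2, so the groups overlapped. The means were 10.62 ± 0.20 (SD, n = 3) on the control arrays and 10.23 ± 0.29 (SD, n = 3) on the Enigma arrays, the difference was -0.39 (interval -0.83 to 0.044), and the exact permutation p was 0.2. With the block the interval was -0.61 to -0.18 and the limma adjusted p was 0.0843. Over the alternatives this adjusted p lay between 0.0709 and 0.230 with the replicate number as a fixed or random block and was at least 0.790 without one. The difference was -0.24 without Enigma 2 and -0.53 without Enigma 1.

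UQCR-14, which lies on the matrix side of the complex, was at 7.80, 7.51 and 7.37 on control arrays 1 to 3 and at 7.66, 7.36 and 7.41 on Enigma arrays 1 to 3. UQCR-Q, the homologue of the small ubiquinone-binding subunit, was at 11.28, 10.78 and 10.79 on control arrays 1 to 3 and at 11.04, 10.73 and 10.81 on Enigma arrays 1 to 3. For both, replicate 1 was the highest array in each group, and the differences were -0.081 and -0.091. The probe set used for ox, a small membrane subunit known from the fly gene oxen, was at 10.10, 10.03 and 10.32 on control arrays 1 to 3 and at 10.30, 9.94 and 10.13 on Enigma arrays 1 to 3. Its difference of -0.028 was a fraction of the spread between replicates, and its other probe set differed by -0.09. The paralog UQCR-14L was below 4 on all 6 arrays, between 2.79 and 2.94, and was not tested. The core proteins UQCR-C1 and UQCR-C2 and the subunit UQCR-11 were not analysed here, nor was Cyt-c-p, the cytochrome c that shuttles to complex IV.

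Complex IV reduces oxygen to water. Its catalytic subunits COX1, COX2 and COX3 are encoded in mitochondrial DNA and were not analysed here, so the values are those of the nuclear subunits around the core. COX4, the subunit at which ATP is known to regulate the mammalian enzyme, was at 11.70, 11.50 and 11.21 on control arrays 1 to 3 and at 11.72, 11.49 and 11.39 on Enigma arrays 1 to 3. The groups overlapped almost fully, with a difference of 0.06 (interval -0.33 to 0.45). COX5A, a matrix-side subunit, was at 10.75, 10.10 and 10.18 on control arrays 1 to 3 and at 10.49, 9.79 and 9.97 on Enigma arrays 1 to 3. In each group replicate 1 was the highest, by over 0.5 on the log2 scale, and within each pair the Enigma array was the lower one, with differences of -0.26, -0.31 and -0.20. The difference was -0.26, with an interval of -0.84 to 0.32 without the block and -0.47 to -0.048 with it (limma adjusted p = 0.182 with the block). It was -0.05 without control 1 and -0.46 without Enigma 1.

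Levy, the fly COX6A whose loss is known to cause paralysis and neurodegeneration in flies, was at 10.56, 10.07 and 10.04 on control arrays 1 to 3 and at 10.38, 9.78 and 9.93 on Enigma arrays 1 to 3. It resembled COX5A, with replicate 1 highest in both groups and the Enigma array lower in all 3 pairs, and a difference of -0.20 (interval -0.70 to 0.31). Leaving out control 1 gave -0.029, leaving out Enigma 2 gave -0.073, and leaving out Enigma 1 gave -0.37. COX5B, a zinc-binding subunit on the matrix side, was at 10.63, 10.73 and 10.80 on control arrays 1 to 3 and at 10.51, 10.72 and 10.74 on Enigma arrays 1 to 3. Its replicate 1 arrays were the lowest of each group, unlike those of COX5A, and its difference was -0.062 (interval -0.34 to 0.21). COX8, a small membrane subunit, was at 10.16, 9.73 and 9.89 on control arrays 1 to 3 and at 10.21, 9.78 and 9.98 on Enigma arrays 1 to 3. It was higher in all 3 pairs, but by 0.052, 0.057 and 0.091, which is less than the range within either group.

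Cype, the fly COX6C, was at 9.69, 9.29 and 9.23 on control arrays 1 to 3 and at 9.75, 9.29 and 9.26 on Enigma arrays 1 to 3. Its pairs were almost level, at 0.066, 0.0058 and 0.034, while replicate 1 stood above the others in both groups. COX7A, another small subunit of the complex, was at 11.56, 11.22 and 11.32 on control arrays 1 to 3 and at 11.68, 11.00 and 11.41 on Enigma arrays 1 to 3. Its Enigma arrays spread wider than its control arrays around nearly the same mean, with an interval of -0.47 to 0.47. COX7B was at 10.14, 9.87 and 10.02 on control arrays 1 to 3 and at 10.18, 9.90 and 9.99 on Enigma arrays 1 to 3, with a difference of 0.014 (interval -0.29 to 0.32).

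Complex IV also held paralogs, copies of a subunit gene, many of which are known for expression in the fly testis. COX4L was at 5.85, 5.30 and 5.39 on control arrays 1 to 3 and at 5.30, 5.43 and 4.89 on Enigma arrays 1 to 3, with pair differences of -0.55, 0.13 and -0.51. Its difference over all 6 arrays was -0.31 (interval -0.80 to 0.18), and pair 2 went the other way from pairs 1 and 3. The difference was -0.14 without control 1, -0.15 without Enigma 3 and -0.53 without replicate 2 in the fit with the block. COX7AL was at 5.76, 6.05 and 6.02 on control arrays 1 to 3 and at 5.98, 6.19 and 6.00 on Enigma arrays 1 to 3, and its difference was 0.12 (interval -0.19 to 0.42). COX5BL (2.05 to 2.22) and COX6AL2 (3.47 to 3.71) were below 4 on all arrays. So was the probe set annotated for the common subunit COX7C, at 3.46 to 3.63, which leaves COX7C without a test here. Of the testis markers, 8 of 9 were likewise below the filter. The sum of the log2 values of all 9 was 29.5 to 29.8 on the control arrays and 29.5 to 30.4 on the Enigma arrays. Values below the filter make up most of that sum, so it says little about testis genes.

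Complex V turns in the inner membrane and makes ATP in its catalytic head. Blw, the alpha subunit (bellwether), was at 11.59, 11.59 and 11.17 on control arrays 1 to 3 and at 11.51, 11.29 and 11.12 on Enigma arrays 1 to 3. ATPsynbeta, the beta subunit, which carries the catalytic sites, was at 7.25, 7.04 and 6.94 on control arrays 1 to 3 and at 7.37, 7.18 and 7.50 on Enigma arrays 1 to 3. The subunits, which form the head together, had differences of opposite sign. The probe set of ATPsynbeta, at 6.94 to 7.50, read far lower than that of blw, at 11.12 to 11.59. Whether the ATPsynbeta probe set measures its transcript well was not tested. Blw was lower in all 3 pairs, with differences of -0.075, -0.30 and -0.056, and ATPsynbeta was higher in all 3, with differences of 0.12, 0.14 and 0.56. Neither passed, with differences of -0.15 (interval -0.54 to 0.25, limma adjusted p = 0.479 with the block) and 0.27 (interval -0.054 to 0.60, limma adjusted p = 0.255 with the block). The difference of ATPsynbeta had an exact permutation p of 0.2, and it was 0.13 without replicate 3 in the fit with the block. Whether the differences of blw and ATPsynbeta differ from each other was not tested.

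In the central stalk, the rotor, ATPsyngamma was at 9.52, 9.29 and 9.004 on control arrays 1 to 3 and at 9.42, 9.04 and 9.08 on Enigma arrays 1 to 3. ATPsyndelta, which sits at the foot of the stalk, was at 9.31, 9.08 and 8.94 on control arrays 1 to 3 and at 8.95, 9.15 and 9.12 on Enigma arrays 1 to 3. Their differences were -0.091 (interval -0.51 to 0.32) and -0.037 (interval -0.36 to 0.28), and both overlapped between the groups. ATPsynC, the subunit of the proton-driven ring in the membrane, was at 11.53, 11.09 and 10.96 on control arrays 1 to 3 and at 11.70, 11.05 and 11.31 on Enigma arrays 1 to 3. Its difference was 0.16 (interval -0.36 to 0.68). The other probe set of ATPsynC was just above the filter of 4, at 4.47 to 4.61 over the arrays. It differed by -0.08 and was lower in all 3 pairs.

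The peripheral stalk holds the head still while the rotor turns. Its subunit ATPsynO, the oligomycin sensitivity conferring protein, was at 10.26, 9.99 and 9.66 on control arrays 1 to 3 and at 10.10, 9.86 and 9.85 on Enigma arrays 1 to 3. Subunit ATPsynB was at 10.13, 9.54 and 9.69 on control arrays 1 to 3 and at 9.95, 9.31 and 9.66 on Enigma arrays 1 to 3. Both were highest on the replicate 1 arrays, and the Enigma array of ATPsynB was the lower one within each pair. The differences were -0.14 for ATPsynB (interval -0.66 to 0.38) and -0.035 for ATPsynO (interval -0.45 to 0.38). ATPsynD, also of the stalk, was at 10.64, 10.52 and 10.34 on control arrays 1 to 3 and at 10.55, 10.28 and 10.40 on Enigma arrays 1 to 3. ATPsynCF6, coupling factor 6, was at 9.86, 9.48 and 9.53 on control arrays 1 to 3 and at 9.79, 9.30 and 9.59 on Enigma arrays 1 to 3. Their differences of -0.094 and -0.06 were below the SD within either group.

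Subunits e and f lie in the membrane part. ATPsynE was at 10.15, 10.01 and 9.83 on control arrays 1 to 3 and at 10.09, 9.66 and 9.74 on Enigma arrays 1 to 3. Over the 6 arrays it had the lowest difference within complex V, -0.16 (interval -0.54 to 0.21), and the Enigma array was lower in all 3 pairs. The difference of ATPsynE was -0.078 without Enigma 2 and -0.30 without Enigma 1. ATPsynF was at 9.25, 8.47 and 8.52 on control arrays 1 to 3 and at 8.96, 8.28 and 8.61 on Enigma arrays 1 to 3. Control 1 and Enigma 1 were its highest arrays, and its difference was -0.13 (interval -0.76 to 0.50). Among the paralogs, ATPsynbetaL was at 4.80, 4.96 and 5.10 on control arrays 1 to 3 and at 4.86, 5.15 and 4.88 on Enigma arrays 1 to 3. ATPsynepsilonL was at 4.87, 4.81 and 5.01 on control arrays 1 to 3 and at 5.07, 4.48 and 4.89 on Enigma arrays 1 to 3. Their groups overlapped, with differences of 0.013 and -0.083. ATPsynCF6L (2.94 to 3.11) and ATPsynGL (3.78 to 3.92) were below 4 on all arrays.

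**Figure D2:**
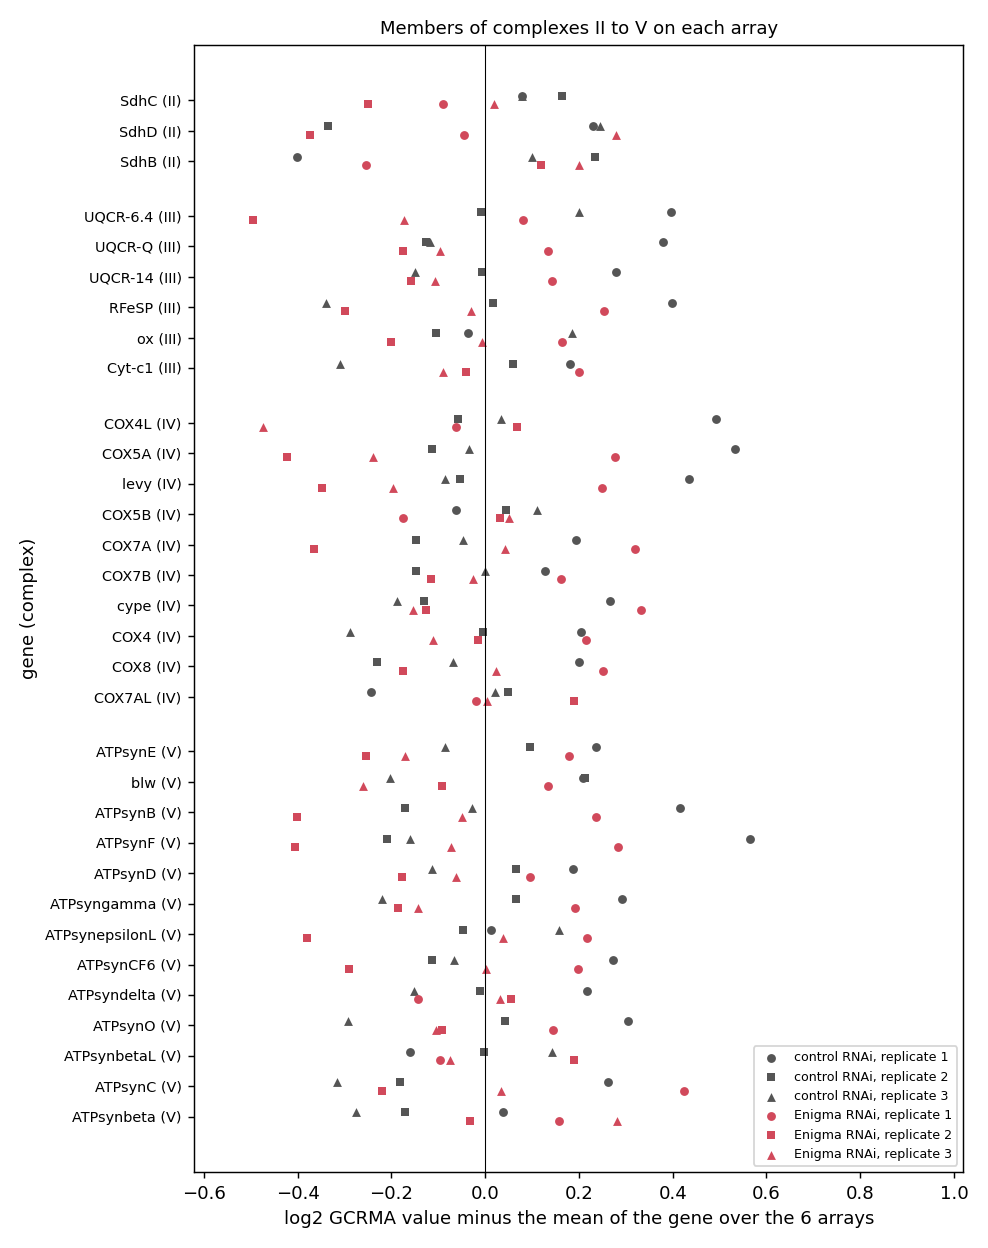
Each row is a tested member, grouped by complex, and each point is 1 array, placed by its log2 value minus the mean of that gene over the 6 arrays (grey for control RNAi, red for Enigma RNAi, with the marker giving the replicate number). Circles, the replicate 1 arrays, lie to the right in most rows of complexes III, IV and V, and to the left for SdhB, COX5B, COX7AL and ATPsynbetaL, while grey and red points overlap in every row but SdhC.

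The complexes were then set against each other. The median differences were -0.09 over 3 members of complex II, -0.07 over 6 of complex III, 0.01 over 10 of complex IV and -0.08 over 13 of complex V. In complex II 2 of 3 members had a lower mean, in complex III 5 of 6, in complex IV 5 of 10 and in complex V 10 of 13, against 58.3% of all probe sets. Within pairs the medians of complex V were -0.075, -0.20 and 0.069, those of complex III -0.14, -0.13 and 0.032, those of complex II -0.17, -0.12 and 0.034, and those of complex IV 0.022, -0.0019 and -0.021. Pair 3 thus had the other sign from pairs 1 and 2 in complexes II, III and V, and in these 3 complexes the pairs lay further apart than the medians of the 4 complexes, while in complex IV they lay closer together. Members share arrays and are not replicates, so no test was made between complexes. Without control 1 the median of complex III was 0.06 and that of complex V was 0.032, and without Enigma 1 that of complex IV was -0.09 and that of complex V was -0.17.

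Some members passed a test of the replicate number, while none passed for treatment. A test of the replicate number, beside treatment, was added once the values had been seen. In it 9 of 32 members passed (limma, F test with adjusted p under 0.05), against 23.5% of all probe sets, so the share that passed is near the background. The direction was less even: 27 of 32 members were higher on the replicate 1 arrays than on the mean of replicates 2 and 3, against 45.8% of all probe sets, with a median of 0.32 against -0.03. Replicate 1 was the highest array of both groups for 20 of 32 members, against 23.3% of all probe sets. It was the lowest of both for 4, against 28.0%. Replicate 2 was the lowest of both for 12 of 32 members, against 18.9% of all probe sets. The count of members higher on replicate 1 was 25 of 32 in the control arrays by themselves, against 42.2% of all probe sets, and 27 of 32 in the Enigma arrays by themselves, against 49.7%. It was 26 of 32 with quantile normalization, against 46.9%, and 26 of 32 with cyclic loess, against 50.5%. Among the probe sets with a mean of at least 6 it was 25 of 28 members against 58.2%, so brighter probe sets in general were more often higher on replicate 1. The counts of highest and lowest arrays were not taken among these brighter probe sets. With quantile normalization 5 of 32 members passed for the replicate number, against 13.6% of all probe sets, and with cyclic loess 5 of 32, against 14.7%, shares near the background as well. Complex I, which is no part of the members, went the same way: 22 of its 25 tested subunits were higher on replicate 1 and 11 passed for the replicate number, so nothing in this direction sets complexes II to V apart from it.

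The 9 members that passed for the replicate number came from all of complexes II to V. ATPsynF had the largest positive difference between replicate 1 and the mean of the others, 0.63 (limma F test, adjusted p = 0.0164), followed by COX5A at 0.61 (adjusted p = 0.0119), ATPsynC at 0.51, levy at 0.51, ATPsynB at 0.49, cype at 0.45 and UQCR-6.4 at 0.36. SdhB went the other way, at -0.49 (adjusted p = 0.0327). SdhD passed through replicate 2, with 7.34 and 7.30 on the number-2 arrays against 7.63 to 7.96 on the others. Higher on replicate 1 were 6 of 6 members of complex III, 8 of 10 of complex IV and 12 of 13 of complex V. In complex II it was 1 of 3. The 6 of complex III include ox at only 0.094 ± 0.11 (SE). The other probe set of ox went the other way, at -0.32 ± 0.10 (SE), with replicate 1 the lowest array in both groups. The labels do not say what the replicate number stands for, and the source of these differences was not tested.

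**Figure D3:**
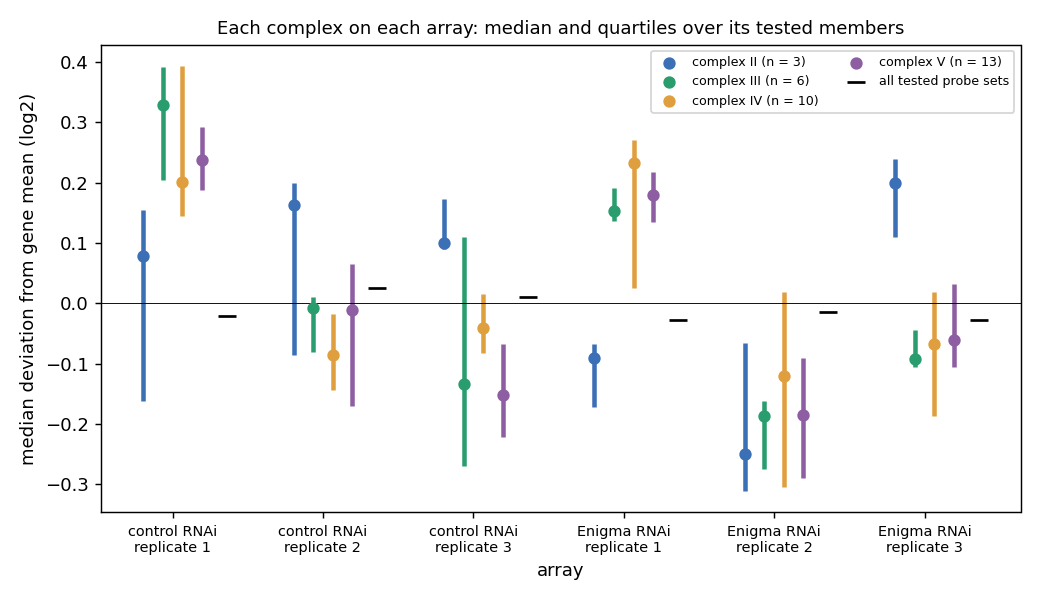
For each array and complex, the point is the median over the tested members of the log2 value minus the gene's mean over the 6 arrays, and the bar runs from the lower to the upper quartile, with black dashes for all tested probe sets. Complexes III, IV and V stand at 0.33, 0.20 and 0.24 on control 1 and at 0.15, 0.23 and 0.18 on Enigma 1, and below 0 on the other 4 arrays, while complex II does not follow them.

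The array medians show the same split. Complexes III, IV and V stood between 0.20 and 0.33 above their gene means on control 1 and between 0.15 and 0.23 above them on Enigma 1. On the other 4 arrays their medians ran from -0.19 to -0.0082, and the lowest of these were those of complexes III and V on Enigma 2, at -0.19 each. Complex II had its lowest median on Enigma 2 as well, at -0.25, and its highest on Enigma 3, at 0.20. Over all tested probe sets the medians stayed between -0.03 and 0.03.

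**Figure D4:**
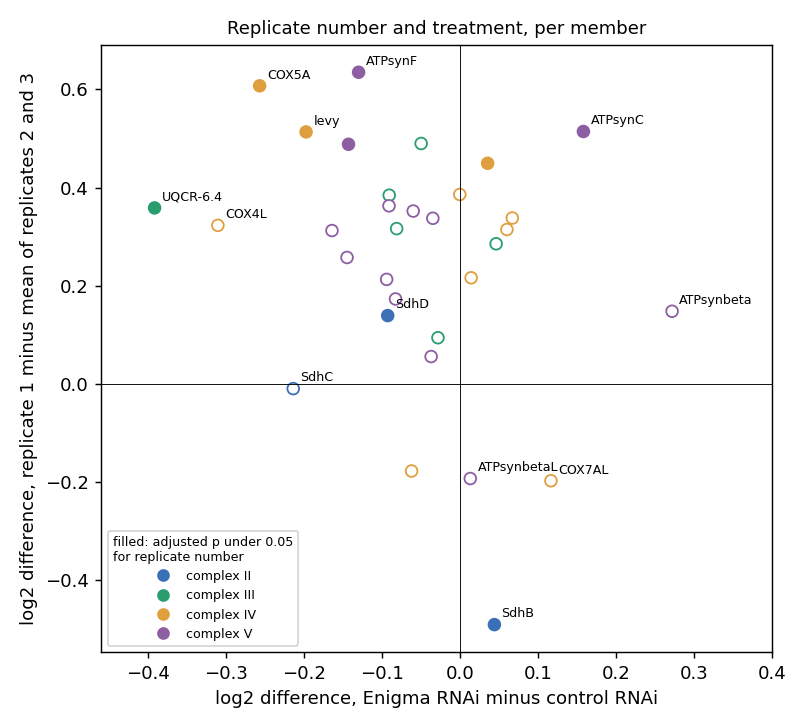
Each point is a tested member, coloured by complex, with the log2 treatment difference on the horizontal axis and the log2 difference between replicate 1 and the mean of replicates 2 and 3 on the vertical axis, filled where the replicate number passed. Most points lie above 0 on the vertical axis, up to 0.63 for ATPsynF, while the horizontal values stay between -0.39 and 0.27.

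Other genes of the pathway were read from lists by function. No gene of any list passed in limma, without or with the block. Of 25 tested subunits of complex I, the entry point for NADH, 24 had a lower mean, with a median of -0.14, led by ND-MWFE, with 9.71 ± 0.41 (SD, n = 3) on the control arrays and 9.25 ± 0.52 (SD, n = 3) on the Enigma arrays, and by ND-42, with 9.04 ± 0.15 (SD, n = 3) on the control arrays and 8.69 ± 0.35 (SD, n = 3) on the Enigma arrays. Complexes II to V had 22 of 32 with a lower mean and a median of -0.06, and the difference from complex I was not tested. Over all probe sets 58.3% had a lower mean and the median was -0.03, the background for each list. Genes of a list share arrays and are not replicates, so such counts are no test. Of 11 tested genes listed as assembly factors of complexes II to V, 4 had a lower mean, with a median of 0.02. The role of each listed gene was not checked here. Sirup, the fly Sdhaf4 that helps to join the subunits SdhA and SdhB, was at 10.10, 10.89 and 11.67 in controls and 9.89, 9.97 and 10.34 after Enigma RNAi, with a difference of -0.82 ± 0.38 (SE). Coa8, a factor of complex IV, had means of 6.35 ± 0.41 (SD, n = 3) on the control arrays and 5.75 ± 0.53 (SD, n = 3) on the Enigma arrays, with a difference of -0.60 ± 0.31 (SE). Both were lower in all 3 pairs, and the groups overlapped for both. These SE are without the block. With it they were 0.19 for Sirup and 0.12 for Coa8, with limma adjusted p of 0.0835 and 0.0632.

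Genes around ubiquinone did not pass either. Of 7 tested genes of ubiquinone synthesis, 3 had a lower mean, with a median of 0.02, and the largest differences were those of Pdss2 at -0.29 and Coq7 at -0.19. Another list held genes for other routes of electrons to ubiquinone, direct or through the electron transfer flavoprotein. Of these, 3 were tested and all had a lower mean, against 58.3% of all probe sets. Among them Dhod, the dihydroorotate dehydrogenase of pyrimidine synthesis, differed by -0.44 ± 0.22 (SE), and wal, the alpha subunit of the electron transfer flavoprotein that takes electrons from acyl-CoA dehydrogenases, by -0.13 ± 0.17 (SE). Of 8 tested carriers and porins, 3 had a lower mean, with a median of 0.04. Ant2, an ADP/ATP carrier that supplies complex V with ADP, was at 7.73, 8.13 and 6.88 in controls and 7.94, 8.22 and 8.12 after Enigma RNAi, higher in all 3 pairs but overlapping, by 0.51 ± 0.30 (SE). Mpcp2, a phosphate carrier, differed by 0.23. The SE of Dhod, wal and Ant2 are without the block. With it they were 0.12, 0.092 and 0.21, with limma adjusted p of 0.121, 0.501 and 0.239. Of the 5 tested paralogs, 2 had a lower mean, with a median of 0.01, and the largest differences were those of COX4L and COX7AL given above. Of 10 tested regulators of respiratory genes and of mitochondrial DNA, 7 had a lower mean, with a median of -0.04. The largest differences among these regulators were those of Pink1 at -0.19 and Opa1 at 0.17. The groups did not overlap for Opa1, and in the other lists for Cox17 (0.21), OXA1L (-0.17), ND-75 (-0.25) and ND-B14.5A (-0.34). Over all probe sets the share without overlap was 8.97%.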

How the data were processed

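RNA of 3 control RNAi and 3 Enigma RNAi samples (8 µg of total RNA each) was hybridised to Affymetrix arrays. The authors deposited values from GCRMA, as the submitters' processing notes name it (version not given in the sources used here), and these were taken as log2 because of that method and their range of -0.32 to 14.30. They were not rescaled. Of 14010 probe sets, 44 control probe sets were left out, and 12444 carry 1 gene in GEO's platform annotation (12394 matched to RefSeq, Release 6 plus ISO1 MT). The two-sided tests used lmFit and eBayes (limma 3.58.1, R 4.3.3) with Benjamini-Hochberg adjustment over all 6975 tested probe sets and a threshold of 0.05, beside exact permutation over the 6 arrays. The fitting code was tested on simulated data.

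Pairing by replicate number was checked: residuals from group means had r = 0.80, 0.64 and 0.65 between the arrays numbered 1, 2 and 3, so values with the block are given. The pairing rests on these correlations and the titles, not on a stated batch. The 3 arrays per group limit the precision. The members and gene lists were chosen with earlier results of these data known. The rule for names took every member, and from each list the members that passed or, with none, the pair with the largest absolute differences. Haemocyte, fat body, muscle, neuronal and testis markers are in the report. Of the crystal cell markers 1 of 4 (lz) and of the lamellocyte markers 2 of 5 (cher and mys) met the filter. Of the assembly factor names, 12 matched no gene in the reference. Alternatives were the block, fixed or random, other filters and normalizations, array weights and left-out arrays. The array weights were lowest for Enigma 2, at 0.45, and highest for Enigma 3, at 2.58. Enigma 2 also had the most probe sets above 4, 7376, and control 1 the fewest, 6739.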

Additional observations from a re-analysis of the deposited data

How the results depend on the processing

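With the replicate block, Enigma passed at the same difference of -2.72, also as a random block, at -2.72 with quantile normalization or cyclic loess and the block, and with no filter and the block. Without single arrays or replicates it lay between -3.002 and -2.52. The count of probe sets past the threshold was 0 without the block, 44 with it, 3 with a random block, 1 with the block and quantile normalization, cyclic loess or no filter, and 94 with the block and a mean of at least 6. Without single arrays or replicates it ran from 0 to 586. The settings that joined the block with another normalization or filter, those for the replicate number and the medians without paralogs were chosen after seeing the data. The count of members past the threshold was 0 in every setting. Members past the threshold for the replicate number were 9 of 32, against 23.5% of all probe sets, and 5 of 32 with quantile normalization or cyclic loess, against 13.6% and 14.7%, so the share over all probe sets fell too. The block changed no call of a member.

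The median difference of complex II was 0.052 with array weights and ran from -0.26 to 0.0060 without single arrays or replicates. That of complex III ran from -0.18 to 0.057, that of complex IV from -0.093 to 0.063, with 0.046 under cyclic loess, that of complex V from -0.17 to 0.032, and that of all members from -0.16 to 0.030. The sign of single members turned without arrays, over ranges of -0.15 to 0.18 (SdhB), -0.28 to 0.070 (SdhD), -0.097 to 0.15 (Cyt-c1), -0.23 to 0.14 (RFeSP), -0.18 to 0.038 (UQCR-14), -0.18 to 0.076 (UQCR-Q), -0.14 to 0.064 (ox), -0.070 to 0.18 (COX4), -0.11 to 0.0096 (COX5B), -0.16 to 0.18 (COX7A), -0.063 to 0.081 (COX7B), -0.042 to 0.18 (COX8), -0.12 to 0.18 (cype), -0.30 to 0.028 (ATPsynB), -0.014 to 0.33 (ATPsynC), -0.17 to 0.070 (ATPsynCF6), -0.30 to 0.12 (ATPsynF), -0.19 to 0.11 (ATPsynO), -0.079 to 0.13 (ATPsynbetaL), -0.15 to 0.12 (ATPsyndelta), -0.23 to 0.086 (ATPsynepsilonL) and -0.22 to 0.032 (ATPsyngamma). Among members whose sign held, the ranges were -0.29 to -0.11 (SdhC), 0.023 to 0.18 (COX7AL), -0.17 to -0.020 (ATPsynD), -0.30 to -0.072 (ATPsynE) and -0.28 to -0.051 (blw). With array weights the sign turned for SdhD (0.13), RFeSP (0.020), COX7A (0.089), ATPsynCF6 (0.018), ATPsynbetaL (-0.060) and ATPsyndelta (0.0014). With quantile normalization, with or without the block, it turned for RFeSP (0.0042) and ox (0.0068). With cyclic loess it turned for ox (0.013), COX7A (0.035), ATPsynO (0.0078) and ATPsyndelta (0.0099). It also turned for ATPsynC on its next probe set (-0.082), which lies just above the filter. The cause was not tested. Of 634 member values under the alternatives, 562 kept their sign, and none passed.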

Other observations

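Probe sets shared with another gene were kept out of the comparisons, and some bear on subunits with no probe set of their own. The probe set of ATPsynG, a membrane subunit of complex V, and beat-Vb was at 11.56, 10.70 and 10.71 in controls and at 11.33, 10.64 and 10.77 after Enigma RNAi, with replicate 1 the highest in both groups. That of COX6B, a subunit of complex IV, and CG18809 was at 11.70, 11.54 and 11.60 in controls and at 11.59, 11.46 and 11.44 after Enigma RNAi. The genes that share a probe set cannot be told apart.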
